A study of Homo sapiens with 6 samples.

Results

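The genes described here are 382 antisense long noncoding RNAs and the genes they are named after. They were taken from the deposited count table as every row whose name ends in -AS1, -AS2 or -AS3 and whose counts sum to at least 60 over the 6 libraries. Of 551 rows with such a name, 390 reached that sum, and 6 HOX antisense rows, EPB41L4A-AS1 and OIP5-AS1 were left out. The 382 members are part of a table of 20503 genes. Each was compared with the gene named before -AS, its partner. A partner row was found for 376 members, and because 9 partners have 2 members each, these are 367 distinct partner genes.

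An antisense transcript is read from the opposite strand of the gene it is named after. Many start next to the partner's own promoter, an arrangement called head to head, and others lie inside the partner or cross its far end. Some natural antisense RNAs are known to act on the partner in cis, through chromatin or by pairing with its RNA, some act elsewhere in the cell, and for most no function is known. Antisense and promoter-derived RNAs are as a class short-lived in the nucleus, where the RNA exosome degrades many of them.

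The study compared T47D, a human breast cancer line labelled oestrogen receptor positive, with T47D-TR, a tamoxifen-resistant subline of it, in 3 libraries each. T47D-TR was kept in 1 µM 4-hydroxytamoxifen, the active form of tamoxifen, and no agent is named for T47D. The medium of both was DMEM with 10% serum, so resistance and the presence of the drug changed together and cannot be told apart. Poly(A)-selected RNA was sequenced with a directional kit, so antisense RNAs without a poly(A) tail were not captured. Separate cultures are not named in the labels, nor whether the subline is 1 clone, and p-values therefore measure only the spread between these libraries, which may be technical.

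The libraries held 17199315 to 19867230 counts, and 3 counts correspond to 0.151 to 0.174 CPM, the count scaled to a common library size (TMM-adjusted where genes are compared). T47D-TR replicate 3 stood apart: its counts differed from those of its group by 8.36 and 9.58 (chi-square per gene), while replicates 1 and 2 differed by 2.79 and the T47D libraries by 1.83 to 2.24. Of the 7 mesenchymal and fibroblast markers in the table, COL1A2, COL3A1 and DCN had 22, 37 and 19 counts in that library and 0 to 4 in every other. The others did not follow: LUM fell from 232 to 286 counts per T47D library to between 3 and 6, PDGFRB was called lower (5.72 and 3.58 CPM), COL1A1 was not called (18.2 and 17.5 CPM), and only VIM was called higher. Of the luminal epithelial markers, KRT8 was abundant in both groups (1338 ± 26 and 1580 ± 120 CPM, mean ± SD, n = 3), but ESR1, the gene of oestrogen receptor alpha, had 0 to 4 counts in every library and was too low to test. CDH1, the epithelial cadherin, was low in both groups and called higher in T47D-TR (2.12 ± 0.742 and 5.50 ± 2.40 CPM), and VIM, the gene of a mesenchymal filament, stood at 770 ± 10.9 and 1297 ± 22.4 CPM. The labelled receptor status was thus not matched by ESR1 RNA in either group. The summed level of the endothelial markers in the table was 0.665 to 0.804 CPM in T47D libraries and 23.5 to 31.1 in T47D-TR, nearly all PECAM1, and that of the immune markers 23.1 to 26.4 and 57.0 to 75.1. The immune sum was nearly all CD68 (23.7 and 64.6 CPM), while CD8A was called lower (1.41 and 0.558 CPM) and PTPRC had 0 to 2 counts. The part of these levels in the results on antisense RNAs was not tested.

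Of the 382 antisense RNAs, 379 could be tested with edgeR, and 121 were higher in T47D-TR, 64 were lower and 194 were not called. That is 31.9% of the tested members higher and 16.9% lower, beside 32.5% and 30.5% of all 15961 tested genes. With quantile normalization in limma voom, which moved the median log2 fold change of all genes by -0.11 and of the members by -0.19, 90 members were higher and 98 lower, so higher calls went from 65.4% to 47.9% of the called members. Over all tested genes they went from 51.6% to 43.0% of the called genes (4361 higher and 5789 lower), so the members' share was the higher one in both fits. A change of at least 2-fold was called upward for 48 members and downward for 8, beside 10.1% and 3.87% of all tested genes. The members were low in abundance, with a median of 3.56 CPM against 19.5 over all tested genes, and their median SE was 0.16 on the log2 scale against 0.09. Among the 3716 tested genes between 1.57 and 9.94 CPM, the middle range of the members, 34.4% were higher and 20.3% lower. For the 189 members in that range the shares were 34.4% and 14.8%. Of the members tested, 214 (56.5%) had groups that did not overlap, beside 68.3% of all tested genes.

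The summed level of the members was 4227, 4221 and 4164 CPM in T47D and 4449, 4458 and 4491 in T47D-TR, a ratio of 1.06 (exact permutation test, 2-sided, p = 0.1, the smallest that 3 against 3 allows). The 10 most abundant members held 35.4% of these counts. Per kilobase of annotated exon, an antisense RNA stood at a median of 27.1% of its partner's level in T47D and 30.5% in T47D-TR over 349 pairs. It was above its partner in 71 and 67 of these pairs. Most members thus stood below their partner per length in both groups. Of the 363 placed pairs, 272 share exon bases. Reads of such pairs cannot be told apart without the strand setting, so the summed and per-kilobase levels may include partner reads.

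The largest increase was that of PAPPA-AS1 on chromosome 9 (GRCh38, 116398157 to 116400606, minus strand), which GENCODE places wholly within PAPPA exons on the other strand. PAPPA-AS1 had 4, 2 and 1 counts in T47D and 106, 116 and 92 in T47D-TR, a rise of 5.44 ± 0.30 on the log2 scale (SE; edgeR with Benjamini-Hochberg adjustment, adjusted p = 1.4e-08). PAPPA, the gene of a protease that cleaves IGF-binding proteins, rose beside it from 9, 6 and 8 counts to 351, 418 and 318 (log2 fold change 5.56 ± 0.17, adjusted p = 9.6e-11). The groups were far apart for both genes, and all 2450 exon bases of the antisense RNA overlap the partner's exons. The strand setting of the counting is not stated, so reads of the 2 genes cannot be told apart. The rise of PAPPA-AS1 may therefore be that of PAPPA reads, which was not tested. The SE here comes from log2 CPM with a prior count of 2, which narrows the spread at low counts.

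HAS2-AS1 starts 46 bases from HAS2, a hyaluronan synthase gene, and has 201 exon bases in common with it. Distances here and below are between the nearest annotated transcript starts of the 2 genes. HAS2-AS1 had 3, 0 and 2 counts in T47D and 66, 72 and 80 in T47D-TR (log2 fold change 5.38 ± 0.42, adjusted p = 2.8e-07). HAS2 had 2, 0 and 0 counts against 184, 213 and 135, a ratio of 271 (95% exact Clopper-Pearson interval 74.6 to 2242, counting error only). Both genes were thus close to absent from T47D and present in every T47D-TR library. FZD10-AS1, 203 bases from the start of the Wnt receptor gene FZD10 and without any overlap with it, had 0, 2 and 0 counts against 14, 14 and 33, a ratio of 31.0 (8.23 to 262). FZD10 itself had 1, 0 and 1 counts against 41, 27 and 45, a ratio of 57.5 (15.6 to 481). No base of this pair is annotated to both genes, and both were near 0 in T47D.

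APCDD1L-AS1, 248 bases from the start of APCDD1L, had 6, 5 and 1 counts in T47D and 59, 46 and 65 in T47D-TR (log2 fold change 3.82 ± 0.48, adjusted p = 3e-06). Its partner was too low to test, with 2, 0 and 3 counts against 7, 3 and 9. ZMIZ1-AS1 rose from 22, 22 and 15 counts to 167, 175 and 234 (log2 fold change 3.32 ± 0.27, adjusted p = 1.5e-07). ZMIZ1, a transcriptional coregulator whose start lies 1140 bases away and does not overlap it, stayed between 3023 and 3757 counts in all 6 libraries (log2 fold change 0.09 ± 0.04, adjusted p = 0.11). ZMIZ1 was called higher without T47D-TR replicate 3 and with quantile normalization, at 0.12 in each. The antisense RNA was therefore the member of this pair that changed by a large factor.

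GSN-AS1 rose from 11, 8 and 6 counts to 75, 89 and 78 (log2 fold change 3.28 ± 0.22, adjusted p = 2.1e-07). GSN, the gene of the actin-severing protein gelsolin, rose by 2.87 ± 0.13 (adjusted p = 1.9e-10). FAM83A-AS1 rose from 25, 15 and 19 counts to 145, 121 and 135 (log2 fold change 2.79 ± 0.24, adjusted p = 1.8e-07). It lies within a FAM83A intron with no shared exon, and FAM83A, a signalling adaptor, rose by 2.93 ± 0.07 (adjusted p = 8.4e-12). In all these same-direction pairs the groups did not overlap for either gene.

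**Figure D1:**
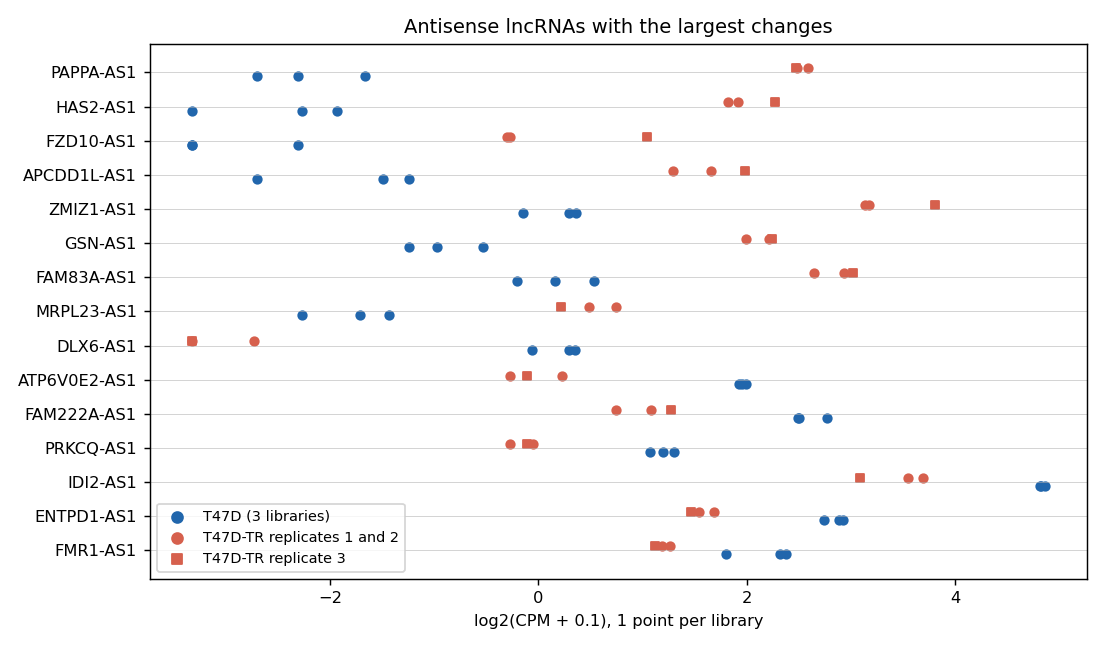
Level of the 15 antisense RNAs with the largest called changes in each direction, as log2(CPM + 0.1), with 1 point per library (circles, and squares for T47D-TR replicate 3). The upper 8 are higher in T47D-TR, from PAPPA-AS1 at a log2 fold change of 5.44 to MRPL23-AS1 at 2.73, and the lower 7 are lower, from DLX6-AS1 to FMR1-AS1 at -1.02, with no overlap between groups for any of them.

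Only 8 antisense RNAs were called at least 2-fold lower, and 7 of these had groups that did not overlap and are described here. DLX6-AS1, which runs across the homeobox gene DLX6 on chromosome 7 without shared exons, had 16, 22 and 22 counts in T47D and 0, 1 and 0 in T47D-TR, a ratio of 58.9 in favour of T47D (95% exact interval 10.2 to 2367). DLX6-AS1 reached the limit of 60 counts only through T47D, so its ratio is a description. DLX6 fell beside it from 66, 73 and 68 counts to 5, 5 and 4 (log2 fold change -3.83 ± 0.03, adjusted p = 7.7e-08). ATP6V0E2-AS1 fell from 70, 76 and 69 counts to 14, 21 and 14 (log2 fold change -2.10 ± 0.15, adjusted p = 2.6e-06), and ATP6V0E2, a subunit of the proton pump V-ATPase, from 365, 420 and 355 to 170, 177 and 189 (log2 fold change -1.06 ± 0.12, adjusted p = 2.3e-06). Their nearest starts lie 131 bases apart and 864 exon bases are shared. The antisense RNA fell by more than its partner, and the log2 ratio of the 2 genes' CPM (0.5 added to each) fell by 0.62 ± 0.16 with groups that did not overlap.

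The promoter window of ATP6V0E2-AS1 (RefSeq, GRCh38.p14, chr7:149873813-149874112, minus strand, 250 bases before to 50 after its start) is printed because both genes of the locus fell and annotated starts of both lie in this window. Capitals mark a CCAAT box, here on the reverse strand, which begins 1 base after the antisense start.
ATP6V0E2-AS1: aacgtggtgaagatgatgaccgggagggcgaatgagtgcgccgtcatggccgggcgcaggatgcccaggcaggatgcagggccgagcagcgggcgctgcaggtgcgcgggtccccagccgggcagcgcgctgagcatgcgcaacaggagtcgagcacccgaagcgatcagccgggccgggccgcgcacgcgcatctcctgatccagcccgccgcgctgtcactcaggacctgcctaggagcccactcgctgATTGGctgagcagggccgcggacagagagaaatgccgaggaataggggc

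FAM222A-AS1 fell from 103, 131 and 103 counts to 39, 31 and 39 (log2 fold change -1.59 ± 0.18, adjusted p = 6.7e-06), and FAM222A by 0.60 ± 0.16 (adjusted p = 0.0033). IDI2-AS1 fell from 521, 566 and 525 to 247, 228 and 142 (log2 fold change -1.37 ± 0.18, adjusted p = 6.1e-07), and IDI2, an isopentenyl diphosphate isomerase gene of isoprenoid synthesis, by 0.81 ± 0.03 (adjusted p = 0.00053). ENTPD1-AS1 fell from 122, 146 and 136 counts to 60, 55 and 45 (log2 fold change -1.31 ± 0.08, adjusted p = 4.6e-06), and ENTPD1, which encodes the ectonucleotidase CD39, from 1547, 1608 and 1507 to 498, 512 and 544 (log2 fold change -1.55 ± 0.10, adjusted p = 5e-09). In each of these pairs the partner fell too. FMR1-AS1, head to head with the fragile X gene FMR1 and without overlap, fell from 91, 66 and 95 counts to 42, 45 and 35 (log2 fold change -1.02 ± 0.19, adjusted p = 0.00057), while FMR1 fell by 0.30 ± 0.04 (adjusted p = 0.0003). PRKCQ-AS1 fell from 44, 39 and 41 to 14, 17 and 14 (log2 fold change -1.43 ± 0.10, adjusted p = 0.00018). PRKCQ, the gene of protein kinase C theta, had a log2 fold change of -0.59 ± 0.32 (adjusted p = 0.054) and was called lower in 5 of the alternatives, which were library size alone (-0.63), quantile normalization (-0.80), the replicate number as a block (-0.61), and leaving out T47D replicate 3 (-0.72) or T47D-TR replicate 2 (-0.74).

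The most abundant member was LRRC75A-AS1, also known as SNHG29, with 341 ± 1.8 CPM in T47D and 366 ± 13 in T47D-TR. Its log2 fold change of 0.10 ± 0.03 passed in edgeR (adjusted p = 0.04) but not in DESeq2 (adjusted p = 0.081). It also lost its call without any 1 of the T47D libraries (0.10 each), without T47D-TR replicate 3 (0.07), with the replicate number as a block (0.10) and with library size alone (0.07). LRRC75A was low (27 to 48 counts and 35 to 75 counts) and was called higher without T47D-TR replicate 3, at 0.72. FGD5-AS1 had 2985, 3198 and 3100 counts in T47D and 3884, 3955 and 3374 in T47D-TR (log2 fold change 0.30 ± 0.01, adjusted p = 3.8e-05). FGD5, a guanine nucleotide exchange factor gene of endothelial cells, had 0, 0 and 2 against 53, 48 and 36, a ratio of 69.7 (95% exact interval 18.9 to 582). This antisense RNA was thus far above its partner in both groups, unlike most members.

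VIM-AS1 had 3175, 3459 and 3169 counts in T47D and 5415, 5472 and 4839 in T47D-TR (log2 fold change 0.71 ± 0.02, adjusted p = 1.9e-08). VIM, the vimentin gene, had 14066, 15207 and 14446 against 25166, 24929 and 22185 (log2 fold change 0.75 ± 0.02, adjusted p = 2.5e-09). Their starts are 19 bases apart and 641 of their exon bases overlap. The antisense count was 21.5% to 22.7% of the partner count in all 6 libraries. AFAP1-AS1 was lower (3266, 3293 and 3111 against 2496, 2304 and 2387 counts, log2 fold change -0.40 ± 0.08, adjusted p = 0.00011) and AFAP1, an actin filament adaptor, was higher (1392, 1512 and 1351 against 2488, 2822 and 1818, log2 fold change 0.76 ± 0.12, adjusted p = 6.4e-06). No group overlapped the other for either gene of this pair.

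The promoter window of VIM-AS1 (chr10:17229936-17230235, minus strand) is printed because this was the most abundant head-to-head pair that rose together. It lies around the RefSeq start of VIM-AS1, while the distance above is between the nearest GENCODE starts. Whether these are the same start was not checked, so the window may not be a promoter shared with VIM. Capitals mark the SP1-type GC box that begins 172 bases before the antisense start.
VIM-AS1: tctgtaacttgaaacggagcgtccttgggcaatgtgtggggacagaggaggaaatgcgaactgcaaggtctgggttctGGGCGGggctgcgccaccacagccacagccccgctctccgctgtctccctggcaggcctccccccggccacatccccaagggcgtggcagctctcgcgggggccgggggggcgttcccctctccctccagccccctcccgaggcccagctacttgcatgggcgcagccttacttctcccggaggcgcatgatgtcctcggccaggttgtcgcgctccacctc

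Among the 367 partner genes, 122 were higher in T47D-TR, 125 lower, 110 not called and 10 not tested, which is 69.2% called of those tested beside 63.0% of all tested genes. The partners were more abundant than the members, with a median of 45.0 CPM, and their median log2 fold change was -0.01 against 0.16 for the members. Both genes were tested in 362 pairs. They were called in the same direction in 124 pairs (70 higher, 54 lower) and in opposite directions in 20. The antisense RNA alone was called in 33 and the partner alone in 105. Same-direction calls thus made up 34.3% of the pairs and opposite calls 5.52%, while 13635 pairs of neighbouring genes without a member gave 27.4% and 16.9%. Another 1632 head-to-head pairs of tested genes gave 30.5% and 12.4%. The log2 fold changes of the 2 genes of a pair had a Pearson r of 0.71 and a Spearman rho of 0.63 over the 362 pairs, which share libraries and in many cases reads.

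The 2 genes could be placed in GENCODE 29 for 363 pairs, all on opposite strands, of which 222 are head to head with starts within 1 kb, at a median distance of 129 bases. Another 139 overlap with starts farther apart. Head to head here asks only for opposite strands and nearest starts within 1 kb, not that the genes run apart. Of 217 such pairs with both genes tested, 48 have no overlap of gene bodies and 152 share exon bases. The library kit keeps strand, but no source used here gives the strand setting of the authors' counting. Where exons overlap, reads of an antisense RNA and its partner therefore cannot be told apart.

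Agreement in direction moved with exon overlap. Among 265 tested pairs whose exons overlap, 103 were called in the same direction and 10 in opposite directions (91.2% of those with both called the same). Among 84 pairs without shared exon bases, the numbers were 15 and 9 (62.5%), and among the 50 of these without any overlap of the gene bodies 7 and 8 (46.7%). The same share was 61.9% in neighbouring gene pairs without a member and 71.1% in other head-to-head pairs. The rank correlation of the log2 fold changes was 0.72 with shared exons, 0.33 without, and 0.22 without overlapping bodies. Within the overlapping pairs, those with at least 50% of the antisense exon bases shared were called in the same direction 14 times and never in opposite directions (27 pairs). Those sharing from 10% to under 50% were called so 51 and 2 times (135 pairs), and those sharing less than 10% did so 38 and 8 times (103 pairs). The median absolute difference between the log2 fold changes of a pair was 0.21 with shared exons and 0.55 without. Non-overlapping antisense RNAs were somewhat lower, at a median of 2.53 CPM against 4.28. Among pairs with at least 5 CPM of antisense RNA, a limit chosen after the data were seen, the counts were 59 same and 4 opposite with shared exons (121 pairs), and 4 and 4 without (21 pairs). What part the counting of shared reads has in this difference was not tested.

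**Figure D2:**
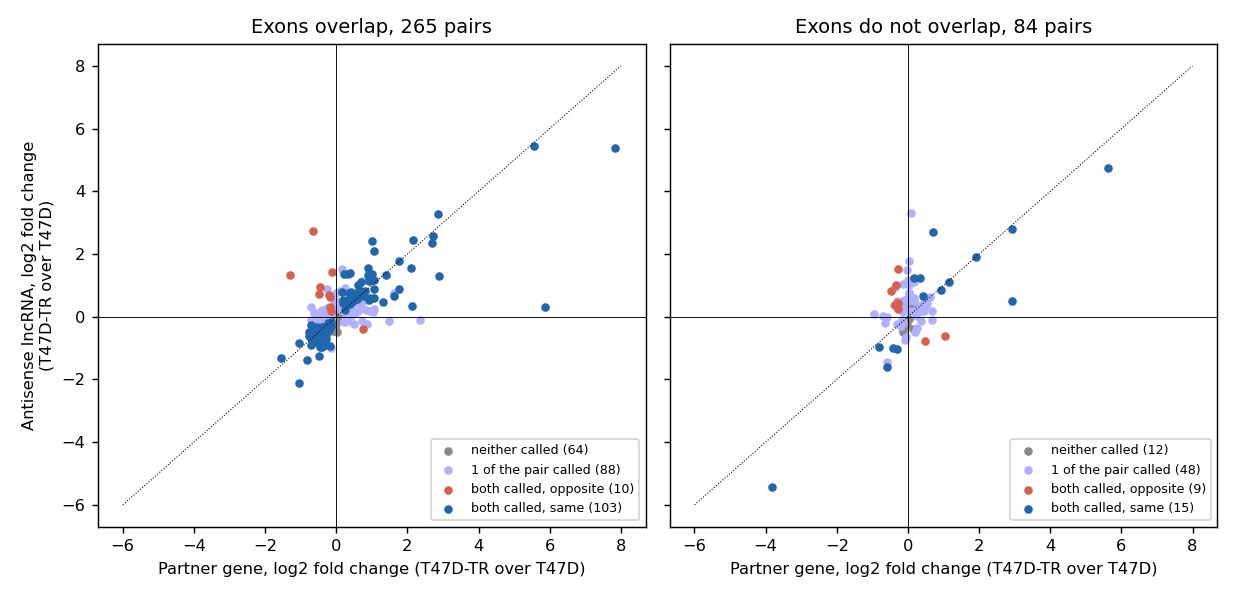
Log2 fold change (T47D-TR over T47D, edgeR) of each antisense RNA on the vertical axis against that of its partner on the horizontal axis, with 1 point per pair, for 265 pairs with shared exon bases (left) and 84 without (right). The dotted line marks equal change. Points on the left lie along it, while on the right many antisense RNAs are spread along the vertical axis at partner changes near 0.

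**Figure D3:**
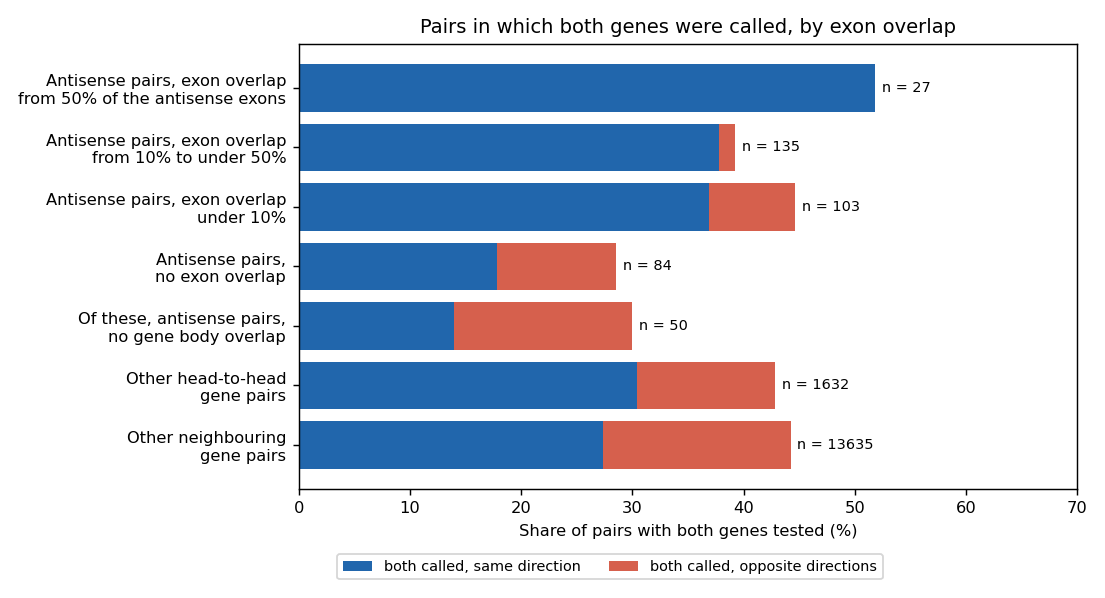
Share of pairs with both genes called in the same direction (blue) or in opposite directions (red), as a percentage of pairs with both genes tested, by the share of the antisense exon bases that overlap partner exons. Among the antisense pairs the opposite share is largest, at 16.0%, where gene bodies do not overlap, while the lower 2 bars, for head-to-head and neighbouring gene pairs without a member, have 12.4% and 16.9%.

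In 17 of the 20 opposite pairs the antisense RNA was higher and the partner lower in T47D-TR. With quantile normalization there were 16 opposite pairs, with the antisense RNA higher in 11, and with DESeq2 9, with it higher in 7. Over all 362 pairs, the antisense to partner ratio did not overlap between groups in 153 (42.3%), beside 64.3% of neighbouring gene pairs. Of the 20 opposite pairs, 16 are head to head and 8 have no overlap of gene bodies. Leaving out 1 library left 10 to 18 opposite pairs, with 11, 10 and 12 without T47D replicates 1, 2 and 3 and 12 without T47D-TR replicate 2.

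CYP1B1-AS1 and CYP1B1, an enzyme that oxidises oestrogens and polycyclic hydrocarbons, start 85 bases apart. CYP1B1-AS1 rose from 16, 12 and 18 counts to 31, 44 and 40 (log2 fold change 1.34 ± 0.24, adjusted p = 0.0009). CYP1B1 fell from 1264, 1299 and 1204 to 496, 507 and 508 (log2 fold change -1.29 ± 0.08, adjusted p = 9.8e-09). The log2 ratio of the antisense RNA to its partner rose by 2.25 ± 0.17 with 0.5 CPM added to each gene, and the groups were apart for both genes although 678 exon bases are shared. MRPL23-AS1 rose from 5, 4 and 2 counts to 25, 31 and 18 (log2 fold change 2.73 ± 0.28, adjusted p = 5.6e-05), and MRPL23, a mitochondrial ribosomal protein gene, fell from 253, 315 and 283 to 193, 210 and 131 (log2 fold change -0.65 ± 0.16, adjusted p = 0.00046).

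BAIAP2-AS1, 241 bases from the start of the actin regulator BAIAP2 and without overlap, rose from 72, 73 and 74 counts to 226, 191 and 197 (log2 fold change 1.51 ± 0.09, adjusted p = 4.6e-07). BAIAP2 fell from 679, 710 and 658 to 596, 625 and 443 (log2 fold change -0.28 ± 0.09, adjusted p = 0.0065). EIF3J-AS1, 134 bases from the start of the translation initiation factor gene EIF3J, rose from 64, 76 and 61 to 127, 165 and 111 (log2 fold change 1.03 ± 0.14, adjusted p = 7.3e-05), and EIF3J fell from 3687, 3927 and 3883 to 3074, 3244 and 2654 (log2 fold change -0.33 ± 0.03, adjusted p = 2.5e-05). Neither pair shares an annotated base, and neither gene's groups overlapped. The promoter windows of these antisense RNAs (chr17:81034670-81034969 and chr15:44536874-44537173, both minus strand) are printed because their divergent starts moved apart. Capitals mark SP1-type GC boxes in both, a CCAAT box on the reverse strand in the first, and an AP-1 motif in the second. The last GC boxes of the first begin 39 and 43 bases after the antisense start.
BAIAP2-AS1: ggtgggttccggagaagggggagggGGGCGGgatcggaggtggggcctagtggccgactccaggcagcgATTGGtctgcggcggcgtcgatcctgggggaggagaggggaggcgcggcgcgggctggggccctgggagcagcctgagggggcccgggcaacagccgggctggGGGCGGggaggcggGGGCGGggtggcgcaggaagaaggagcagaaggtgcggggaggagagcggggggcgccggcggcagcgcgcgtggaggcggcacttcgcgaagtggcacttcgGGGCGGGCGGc
EIF3J-AS1: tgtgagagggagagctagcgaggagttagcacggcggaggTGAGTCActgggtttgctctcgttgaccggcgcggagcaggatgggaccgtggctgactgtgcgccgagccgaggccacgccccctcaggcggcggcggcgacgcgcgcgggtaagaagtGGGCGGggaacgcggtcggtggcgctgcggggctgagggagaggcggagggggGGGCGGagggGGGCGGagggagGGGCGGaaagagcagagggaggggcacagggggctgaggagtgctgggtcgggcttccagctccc

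USP2-AS1 moved the other way, from 73, 68 and 73 counts to 60, 41 and 36 (log2 fold change -0.62 ± 0.19, adjusted p = 0.013, lost without T47D-TR replicate 2 at -0.51). USP2, a deubiquitinase gene whose start is 52 bases away, rose from 48, 49 and 35 to 100, 107 and 63 (log2 fold change 1.05 ± 0.22, adjusted p = 0.00049). The remaining opposite pairs named by the rule had an antisense RNA that was higher. LENG8-AS1 rose from 25, 32 and 26 counts to 79, 73 and 69 (log2 fold change 1.44 ± 0.09, adjusted p = 2.1e-05), and LENG8 was lower by 0.12 ± 0.03 (adjusted p = 0.034), a call lost in DESeq2 and without any 1 of 4 libraries (the T47D libraries and T47D-TR replicate 1; -0.11 to -0.13). PRKAR2A-AS1 had 12, 17 and 9 counts against 19, 31 and 23 (log2 fold change 0.96 ± 0.28, adjusted p = 0.018), lost in DESeq2 and without any 1 of 3 libraries (0.94 without T47D replicate 1, 0.78 without T47D replicate 3, 0.80 without T47D-TR replicate 2). PRKAR2A, a regulatory subunit of protein kinase A, fell by 0.46 ± 0.04 (adjusted p = 2.2e-06). URB1-AS1 had 43, 31 and 29 counts against 44, 68 and 68 (log2 fold change 0.83 ± 0.30, adjusted p = 0.011, lost without T47D replicate 3 at 0.73), with overlap between the groups in scaled CPM, and URB1, a ribosome biogenesis gene, fell by 0.48 ± 0.07 (adjusted p = 1.4e-05).

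PSMA3-AS1, named after its values were seen, rose from 559, 587 and 610 counts to 714, 773 and 730 (log2 fold change 0.37 ± 0.08, adjusted p = 0.00072). PSMA3, a core proteasome subunit gene, fell from 2675, 2831 and 2851 to 2284, 2192 and 1857 (log2 fold change -0.38 ± 0.04, adjusted p = 2.3e-05). The 2 gene bodies overlap but their exons do not, and this is the most abundant opposite pair of that kind.

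In some pairs the antisense count was a nearly fixed share of the partner count. For the 99 pairs with at least 100 counts of each gene in every library, the spread of that share between libraries of a group was measured. The measure was a chi-square per degree of freedom, which averages 1 under independent counting error. With 4 degrees of freedom, single values scatter widely around 1 under such error too. The median was 0.999 over 85 pairs with shared exons and 1.67 over 10 placed pairs without, beside 2.01 over 7202 neighbouring gene pairs. Values under 0.25, a limit chosen after the data were seen, occurred in 10 of the 85, in 0 of the 10 and in 2.75% of neighbouring pairs. How many such values independent counting error gives was not worked out, so they do not show that 2 counts move together. The pairs described next are from this low end. AGAP2-AS1 had 182, 195 and 191 counts in T47D and 176, 149 and 145 in T47D-TR. AGAP2, a GTPase-activating protein gene, had 178, 196 and 193 and 174, 147 and 149, so the antisense count was 97.3% to 102% of the partner count (chi-square per degree of freedom 0.034). MIF-AS1 had 3398, 3826 and 3605 counts in T47D and 3321, 3388 and 2790 in T47D-TR, and MIF, a cytokine gene, had 3464, 3892 and 3664 and 3416, 3429 and 2869, a share of 97.2% to 98.8% (0.073). The log2 fold changes of MIF-AS1 and MIF were both -0.16, with adjusted p = 0.0065 and 0.0077, and cannot be taken as separate measurements. GENCODE gives shared exons for 46.5% of the exon bases of MIF-AS1 and 57.7% of those of AGAP2-AS1.

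A fixed share also occurred where less was shared. CEBPB-AS1 stood at 61.5% to 64.6% of CEBPB, a transcription factor gene, in all 6 libraries while both rose (log2 fold changes 0.81 ± 0.05 and 0.80 ± 0.04, adjusted p = 3.9e-07 and 1.3e-07). TTC28-AS1 kept a narrow share within each group, but that share was 46.1% to 48.8% of TTC28 in T47D and 25.6% to 26.8% in T47D-TR. The log2 fold changes of TTC28-AS1 and TTC28 were 0.46 ± 0.04 and 1.32 ± 0.04 (adjusted p = 0.0017 and 9.9e-09). The share differed between the groups by more than its spread within them, so this pair did not change as a unit.

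**Figure D4:**
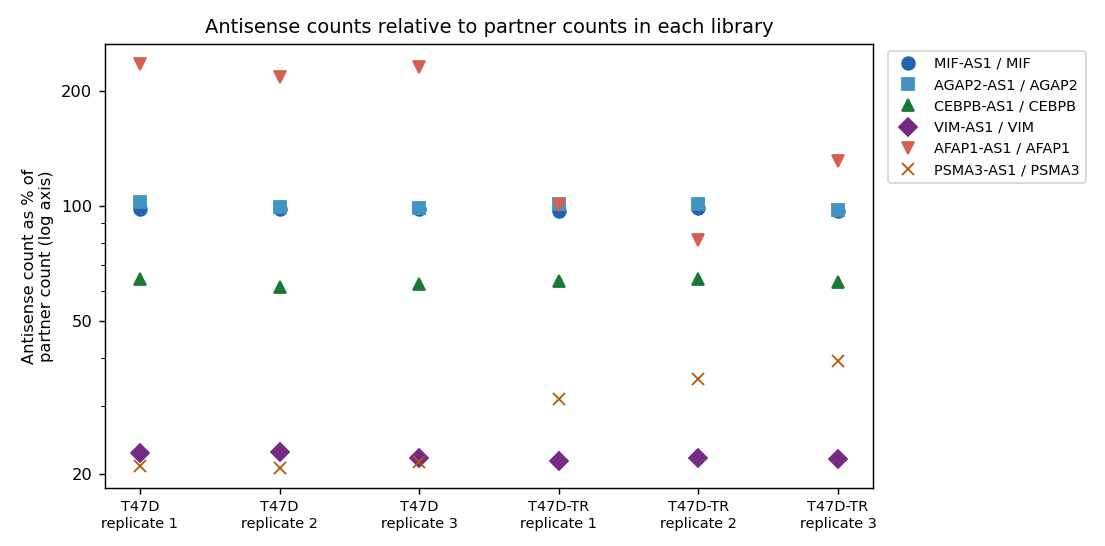
Antisense count as a percentage of the partner count (log axis) in each library for 6 pairs. AGAP2-AS1 and MIF-AS1 lie near 100% and CEBPB-AS1 and VIM-AS1 keep their share across groups, whereas AFAP1-AS1 falls and PSMA3-AS1 rises against its partner in T47D-TR.

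The members were also grouped by the role of the partner, in broad lists drawn up by hand. Some partners do not do what their list's name says, such as the activin receptor gene ACVR2B among metabolic genes, the protease gene CAPN10 among cell cycle genes and the coregulator gene ZMIZ1 among RNA processing genes. The counts stand beside 32.5% higher and 30.5% lower of all tested genes, or 27.3% and 36.3% with quantile normalization in limma voom. Of 29 tested antisense RNAs of transcription factor genes, 14 were higher (48.3%) and 1 lower (3.45%), or 10 and 2 with quantile normalization (34.5% and 6.90%), and their partners were higher in 16 and lower in 3 of 28. BHLHE40-AS1 rose from 51, 47 and 42 counts to 295, 318 and 209 (log2 fold change 2.57 ± 0.14, adjusted p = 1.7e-08). BHLHE40, a hypoxia- and clock-linked repressor, rose by 2.71 ± 0.15 (adjusted p = 4.4e-10) although only 4 exon bases are shared. FOXC2-AS1 rose from 3, 12 and 13 to 59, 43 and 48 (log2 fold change 2.43 ± 0.52, adjusted p = 5.5e-05) and FOXC2, a forkhead factor of mesenchymal and lymphatic development, by 2.16 ± 0.15 (adjusted p = 3.8e-07). The 1 member of this list that fell is DLX6-AS1, given above. In this list 12 pairs moved the same way and 0 in opposite directions.

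Further antisense RNAs of transcription factor genes were picked after their values were seen. NR2F1-AS1 rose from 25, 18 and 10 counts to 95, 98 and 77 (log2 fold change 2.36 ± 0.34, adjusted p = 3.6e-06) with the orphan nuclear receptor gene NR2F1, which rose from 93, 109 and 109 to 738, 758 and 497 (log2 fold change 2.70 ± 0.14, adjusted p = 2.4e-09). HIF1A, the oxygen-regulated factor, has 2 members. HIF1A-AS2 rose from 818, 917 and 843 to 1553, 1777 and 1237 (log2 fold change 0.85 ± 0.09, adjusted p = 6.7e-07), and HIF1A-AS1 from 91, 91 and 92 to 108, 160 and 121 (log2 fold change 0.53 ± 0.16, adjusted p = 0.0086, lost with quantile normalization), beside HIF1A at 0.92 ± 0.06 (adjusted p = 9.4e-09). ZEB1-AS1 rose from 47, 52 and 41 to 134, 129 and 94 (log2 fold change 1.37 ± 0.12, adjusted p = 8.2e-06), while ZEB1, an epithelial-mesenchymal transition factor, was higher by 0.22 ± 0.09 (adjusted p = 0.023), with overlapping groups and a call lost without any 1 of 4 libraries (T47D replicates 2 and 3, T47D-TR replicates 1 and 2; 0.17 to 0.21), with library size alone (0.19) and with quantile normalization (0.17). GATA2-AS1 rose from 300, 317 and 290 to 437, 536 and 450 (log2 fold change 0.68 ± 0.09, adjusted p = 2e-05), and GATA2 had a log2 fold change of 0.02 ± 0.06 (adjusted p = 0.76). The antisense RNA thus changed alone or by more than its partner in the last 2 pairs.

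Of 29 antisense RNAs of receptor, kinase and signalling genes, 10 were higher (34.5%, close to the share of all genes) and 3 lower (10.3%). PIK3CD-AS2 rose from 2, 5 and 3 counts to 25, 20 and 21 (log2 fold change 2.70 ± 0.24, adjusted p = 6.1e-05), and PIK3CD, a catalytic subunit of PI3-kinase, by 0.70 ± 0.20 (adjusted p = 0.001). EGFR-AS1, chosen after its values were seen, rose from 140, 90 and 84 to 215, 202 and 153 (log2 fold change 0.88 ± 0.25, adjusted p = 0.00084) with EGFR, the epidermal growth factor receptor gene (log2 fold change 1.05 ± 0.13, adjusted p = 4.2e-07). PRKAG2-AS1 fell from 88, 103 and 103 to 57, 59 and 38 (log2 fold change -0.91 ± 0.14, adjusted p = 0.00034), and PRKAG2, a regulatory subunit of AMP-activated kinase, by 0.30 ± 0.12 (adjusted p = 0.0076). As in the first list, 8 pairs moved the same way and 0 in opposite directions.

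Of 25 antisense RNAs of cell cycle, DNA repair and chromatin genes, 10 were higher (40.0%) and 5 lower, which turned to 5 and 10 with quantile normalization, a setting that moved all genes the same way (from 32.5% to 27.3% higher). INTS6-AS1 had 10, 7 and 5 counts against 14, 20 and 16 (log2 fold change 1.20 ± 0.26, adjusted p = 0.012, lost in DESeq2 and without T47D replicate 3 at 0.99), and INTS6, an Integrator subunit, rose by 0.91 ± 0.08 (adjusted p = 8.7e-08). INTS6-AS1 reached the limit of 60 counts through its higher T47D-TR counts, so its call is a description. CAPN10-AS1 fell from 62, 78 and 75 to 26, 36 and 44 (log2 fold change -0.98 ± 0.27, adjusted p = 0.0021), and CAPN10, a calpain protease gene, by 0.41 ± 0.11 (adjusted p = 0.0052). CDKN2B-AS1, known as ANRIL and chosen after its values were seen, had 62, 47 and 60 counts against 75, 92 and 69 (log2 fold change 0.50 ± 0.16, adjusted p = 0.023), a call lost in DESeq2, with quantile normalization (0.30) and without T47D replicate 2 (0.36) or T47D-TR replicate 2 (0.42). CDKN2B, the gene of the CDK4 and CDK6 inhibitor p15, rose from 534, 609 and 565 to 4027, 5117 and 3716 (log2 fold change 2.93 ± 0.10, adjusted p = 3.8e-11). The partner changed by far more here, and no exon is shared. In this list 10 pairs moved the same way and 4 in opposite directions.

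Antisense RNAs of RNA processing, translation and protein handling genes were higher in 12 (40.0%) and lower in 3 (10.0%) of 30, or in 10 and 9 with quantile normalization, while their partners were higher in 5 and lower in 11 of 28. Here 4 pairs moved the same way and 5 in opposite directions, among them the MRPL23, EIF3J, URB1 and PSMA3 pairs. ST7-AS2 fell from 134, 118 and 143 counts to 92, 91 and 77 (log2 fold change -0.58 ± 0.10, adjusted p = 0.0024), with ST7 lower by 0.28 ± 0.09 (adjusted p = 0.0067). VPS9D1-AS1 was lower by 0.25 ± 0.10 (adjusted p = 0.026), a call lost in DESeq2 (adjusted p = 0.062) and without T47D replicate 2 or T47D-TR replicate 2 (-0.18 and -0.19). Of 26 antisense RNAs of metabolic, mitochondrial and transport genes, 5 were higher and 5 lower (19.2% each), and of their 26 partners 5 were higher and 12 lower. NDUFB2-AS1, chosen after its values were seen, fell from 381, 434 and 352 to 215, 280 and 225 (log2 fold change -0.67 ± 0.13, adjusted p = 0.00011) with NDUFB2, a subunit of respiratory complex I (log2 fold change -0.68 ± 0.05, adjusted p = 1.8e-06). ACVR2B-AS1, placed in that list although its partner is an activin receptor gene, had 23, 19 and 14 counts against 32, 26 and 35 (log2 fold change 0.76 ± 0.26, adjusted p = 0.031), and its call was lost in DESeq2, with quantile normalization and without any 1 of 4 libraries (T47D replicates 2 and 3, T47D-TR replicates 1 and 3; 0.59 to 0.77).

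Of 23 tested antisense RNAs of cytoskeleton, adhesion and matrix genes, 7 were higher (30.4%, close to the share of all genes) and 1 lower (4.35%), or 6 and 5 with quantile normalization (26.1% and 21.7%). LAMA5-AS1 rose from 118, 122 and 82 counts to 291, 273 and 226 (log2 fold change 1.32 ± 0.18, adjusted p = 2.6e-06), and LAMA5, a laminin chain of basement membranes, from 2813, 2863 and 2590 to 7096, 7717 and 6502 (log2 fold change 1.39 ± 0.05, adjusted p = 1.8e-10). LOXL1-AS1, chosen after its values were seen, had 62, 55 and 69 counts against 169, 217 and 75 (log2 fold change 1.31 ± 0.40, adjusted p = 0.00097). LOXL1, a collagen and elastin cross-linking enzyme, had 47, 41 and 37 against 352, 415 and 158 (log2 fold change 2.89 ± 0.37, adjusted p = 1.8e-06). T47D-TR replicate 3 was the lowest of its group for both, though still above T47D. TM4SF19-AS1 fell from 406, 403 and 403 to 272, 260 and 241 (log2 fold change -0.62 ± 0.04, adjusted p = 1.7e-05), as did TM4SF19, a tetraspanin-like membrane protein gene, by 0.76 ± 0.05 (adjusted p = 3e-05). All 8 pairs of this list with both genes called moved the same way.

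For 293 members a promoter window is in the RefSeq table, and HAS2-AS1, FZD10-AS1 and USP2-AS1 are not among them. The windows had a median GC content of 64.3% and 22 CpG dinucleotides, against 58.7% and 14 over all 35116 windows. For the 178 head-to-head members the medians were 67.0% and 26, and for the other 115 they were 60.3% and 16. Searched on both strands, the GC box GGGCGG stood in 55.3% of member windows and 45.0% of all, the CCAAT box CCAAT in 31.4% and 34.6%, the TATA box TATAAA in 6.83% and 11.5%, and the AP-1 motif TGANTCA in 5.80% and 7.71%. These are matches of letters in the window and no measure of binding.

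Because the nuclear exosome degrades many antisense and promoter transcripts, genes of RNA surveillance were counted beside the members. Of 31 tested genes of that list, 8 were higher in T47D-TR and 20 lower, beside 32.5% and 30.5% of all tested genes. Among the 20, MPP6 on chromosome 7 is a membrane scaffold gene that only shares its name with an exosome cofactor. All 10 EXOSC genes of the exosome, EXOSC1 to EXOSC10, were called lower, with log2 fold changes from -0.63 to -0.29 and a median of -0.41. All 10 were so called in each of the 13 other settings tried. EXOSC7 fell from 739, 830 and 802 counts to 490, 504 and 502 (log2 fold change -0.63 ± 0.08, adjusted p = 9e-06). DIS3L, a cytoplasmic exosome nuclease, fell from 823, 981 and 834 to 570, 522 and 502 (log2 fold change -0.70 ± 0.08, adjusted p = 3.3e-06). ZFC3H1, which joins the exosome to polyadenylated nuclear RNA, rose from 1757, 1740 and 1848 to 2783, 2848 and 2106 (log2 fold change 0.55 ± 0.08, adjusted p = 9.7e-06). T47D-TR replicate 3 was the lowest of its group for ZFC3H1. DIS3, a nuclear exosome nuclease, was higher (log2 fold change 0.21 ± 0.08, adjusted p = 0.011), and lost its call without any 1 of 3 libraries (0.19 and 0.18 without T47D replicates 1 and 2, 0.17 without T47D-TR replicate 1). Whether the exosome genes have a part in the antisense levels was not tested.

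**Figure D5:**
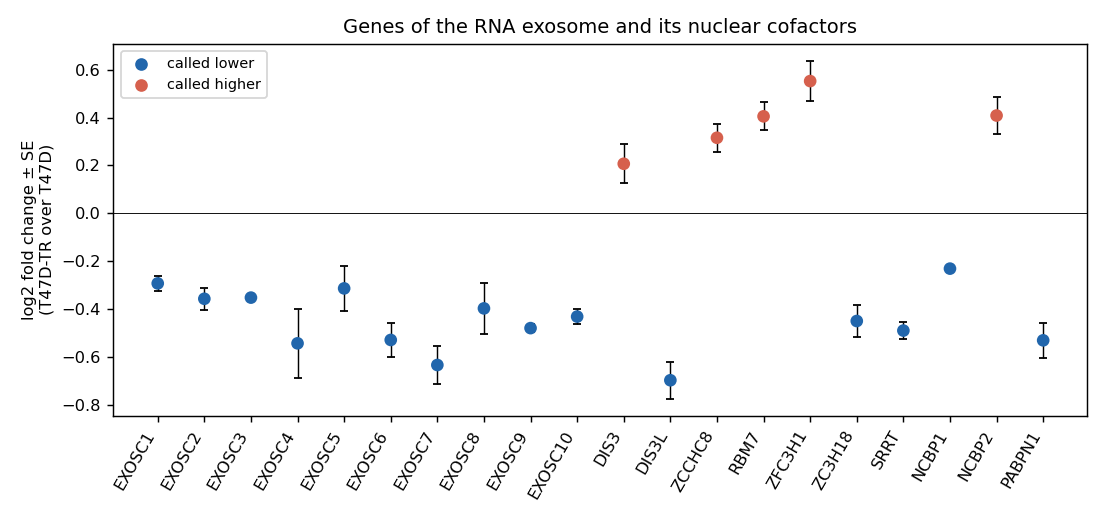
Log2 fold change (T47D-TR over T47D, edgeR) with SE for 20 genes of the RNA exosome and its nuclear cofactors. The 10 EXOSC genes on the left lie between -0.63 and -0.29, all called lower, while DIS3, ZCCHC8, RBM7, ZFC3H1 and NCBP2 were called higher.

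Polycomb repressive complex 2, a histone methylating complex that several antisense RNAs are reported to bind, had 2 of 11 tested genes higher (18.2%) and 5 lower (45.5%), beside 32.5% and 30.5% of all tested genes. Its catalytic subunit EZH2 fell from 2421, 2472 and 2459 counts to 1785, 1899 and 1583 (log2 fold change -0.46 ± 0.03, adjusted p = 2.5e-06), and PHF19 by 0.36 ± 0.08 (adjusted p = 0.00023). JARID2 was higher (1044, 1110 and 1057 against 1419, 1353 and 1236, log2 fold change 0.35 ± 0.03, adjusted p = 6.5e-05). PHF1 was higher by 0.26 ± 0.12 (adjusted p = 0.037), with overlapping groups and a call lost in DESeq2, with library size alone, with quantile normalization and without any 1 of 3 libraries (T47D replicates 1 and 3, T47D-TR replicate 2; 0.15 to 0.23).

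Just inside the count limit were NDUFV2-AS1 and CFAP44-AS1 with 60 counts and DLX6-AS1, IGFBP7-AS1 and FOXN3-AS1 with 61. Just outside were PYCARD-AS1 with 59 and LIFR-AS1 with 58. A low member reaches this sum only through the group in which it is high, so calls near the limit are a description. In 21 members the T47D counts summed to less than 30 and in 5 the T47D-TR counts did, and 15 of the 23 tested among these were called, beside 63.0% of all tested genes. Over the 356 members with at least 30 counts in each group, 108 were higher (30.3%) and 62 lower (17.4%), beside 32.5% and 30.5% of all tested genes.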

How the data were processed

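The 6 poly(A) RNA libraries were grouped by their titles. Per the submitters' processing notes, HISAT2 2.1.0, DESeq and GRCh38 were used. No source used here names the annotation, the counting program or the strand setting. The authors deposited whole-number read counts per gene. Their group means on a normalized signal scale, linear fold ratio, log2 fold change and p-value stand in the same deposited table and were not used.

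Counts were scaled with TMM and compared across the whole table with edgeR 4.0.16 (filterByExpr with minimum count 10 and minimum total 15, glmQLFit, glmQLFTest, Benjamini-Hochberg, called at adjusted p under 0.05, 2-sided). Levels are CPM, mean ± SD over 3 libraries. Alternatives were DESeq2 1.42.0, limma 3.58.1 voom with quantile normalization, other scalings and filters, and leaving out each library. The edgeR fit alone was tested on simulated counts, with equal numbers of genes raised and lowered and far fewer changed than were called here. The pair and ratio counts were not simulated. Same-numbered libraries did not deviate together, so numbers were not used as pairs. GENCODE 29 gave positions for 370 members.

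The members and lists were chosen with earlier results of these data known. Named genes were the largest called changes of at least 2-fold without overlap (up to 8 each way), the 6 most abundant members, up to 8 opposite and 6 same-direction pairs, up to 4 head-to-head pairs within 250 bases, and up to 2 called members at each end of each list. Promoter windows of opposite head-to-head pairs and of VIM-AS1 were added after values were seen. Intervals cover counting error only, since PCR copies were counted as reads. Some genes that this rule names are not reported here.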

Additional observations from a re-analysis of the deposited data

How the results depend on the processing

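With limma voom and quantile normalization 98 antisense RNAs were lower, against 64, while over all tested genes lower calls went from 4867 to 5789. With DESeq2 9 pairs were called in opposite directions, against 20. Among genes with a mean of at least 5 CPM, 59 antisense RNAs were higher and 37 lower, beside 4048 and 3962 of the 11342 genes tested there. At that limit 63 pairs moved the same way and 8 in opposite directions, where fewer genes were tested. Leaving out 1 library gave 10 to 18 opposite pairs, lowest without T47D replicate 2, 11 without T47D replicate 1, and 12 without T47D replicate 3 or T47D-TR replicate 2. By position, pairs without overlapping bodies gave 7 same and 8 opposite, pairs with shared exons 10 opposite, and pairs without shared exons 15 and 9. With TMM-adjusted library sizes the summed level of the members rose 1.09-fold. The log2 ratio of GSN-AS1 to GSN turned from -0.44 to 0.21 with a pseudocount of 0.1 CPM, and that of PIK3CD-AS2 to PIK3CD from 0.68 to -0.014 with 2 CPM. Other causes of these shifts were not tested. With the replicate number as a block, 117 antisense RNAs were higher and 65 lower, beside 5127 and 4827 of all 15961 tested genes. In that fit 125 pairs moved the same way and 18 in opposite directions. Same-numbered libraries had correlations of -0.021 to -0.0051. Of 145 named genes tested, 18 lost and 6 gained a call in at least 1 setting, and none of their fold changes reversed with a call. Depth limits the antisense RNAs with few counts, whose SE is too small.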
